A study of Mus musculus with 30 samples.

Results

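The effect of a Western diet (WD) on muscle was examined by comparing 5 gastrocnemius libraries from WD-fed mice with 5 from mice fed the matched control diet (CD), 10 of the 30 libraries of the series. The 10 libraries were chosen by their labels alone, and all genes detected in them were described. All were from male wild-type C57BL/6J mice that were moved to thermoneutral cabinets (30 to 32 °C) at 6 weeks of age, received their diet from Week 7, were given water by gavage as the control treatment, and were euthanised at Week 24 after a fast of 3 h. Another 5 WD-fed mice, dosed 3 times a week with 20 mg/kg CHP (cyclo His-Pro, a cyclic dipeptide) in place of water, entered the model only to estimate the spread. With the CD and WD libraries alone 1018 genes were called, against 1312 with them. The WD is a purified diet rich in fat and sucrose, and CD and WD mice shared the thermoneutral housing, so the comparison was of diet at thermoneutrality. Whole gastrocnemius was sequenced as bulk polyA-enriched RNA, in which fewer cells of a type and less RNA per cell cannot be told apart. The extraction label of these libraries names frozen liver, while the tissue label and the study's methods name gastrocnemius.

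Gastrocnemius is a mixed calf muscle of mostly fast, glycolytic fibres with a smaller oxidative part. Muscle chooses between glucose and fatty acids as fuel. Fatty acids enter through CD36 and are carried by FABP3, cross the mitochondrial membrane by the carnitine shuttle and are broken down by beta-oxidation, while PDK4 inhibits pyruvate dehydrogenase, which turns pyruvate into acetyl-CoA. Surplus fatty acids are esterified to triglyceride by DGAT enzymes and kept in droplets coated by perilipins. Many of these genes are targets of the PPAR receptors, which are activated by fatty acids.

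Gene counts totalled 50319024 to 53282969 per library. Of 12 markers of fast muscle fibres 12 passed the filter on low counts, against 0 of 8 kidney markers, 0 of 10 T cell markers and 7 of 12 liver markers. The liver markers summed to 11.3 to 88.8 CPM (counts scaled to a common effective library size) in CD and 4.96 to 88.3 CPM in WD, and *Alb*, encoding albumin, was at 47.8, 1.25, 0.390, 2.40 and 0.442 CPM in CD and 0.648, 10.4, 48.6, 3.45 and 0.383 CPM in WD. The 10 most abundant nuclear genes, among them *Myh4*, *Acta1* and *Ckm*, took 28.3% to 31.6% of the counts in CD and 25.4% to 28.2% in WD. This difference of -3.28 percentage points separated the groups completely (two-sided exact permutation test, p = 0.00794, the smallest p that 5 against 5 libraries can give, adjusted p = 0.0238 over 3 measures). Mitochondrially encoded genes took 8.91% ± 1.05 (SD, n = 5) in CD and 10.0% ± 0.587 in WD (exact permutation p = 0.0714). The TMM scaling factors averaged 0.979 ± 0.0302 in CD and 1.03 ± 0.0203 in WD (exact permutation p = 0.0238, adjusted p = 0.0357).

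Gene groups that mark tissue make-up were scored in each library, since they bear on later results. A score of 20 adipocyte markers, the mean of their centred log2 CPM, lay between -0.66 and -0.06 in CD and between 0.38 and 0.56 in WD. The 21 listed markers summed to 473 to 599.7 CPM in CD and 558 to 733 CPM in WD, so the sums overlapped, and none of them was at 0 in all libraries. A score of 15 genes of slow fibres lay between -0.88 and 0.32 in CD and between -0.20 and 0.88 in WD. These scores are given again beside the groups of genes they touch.

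**Figure D1:**
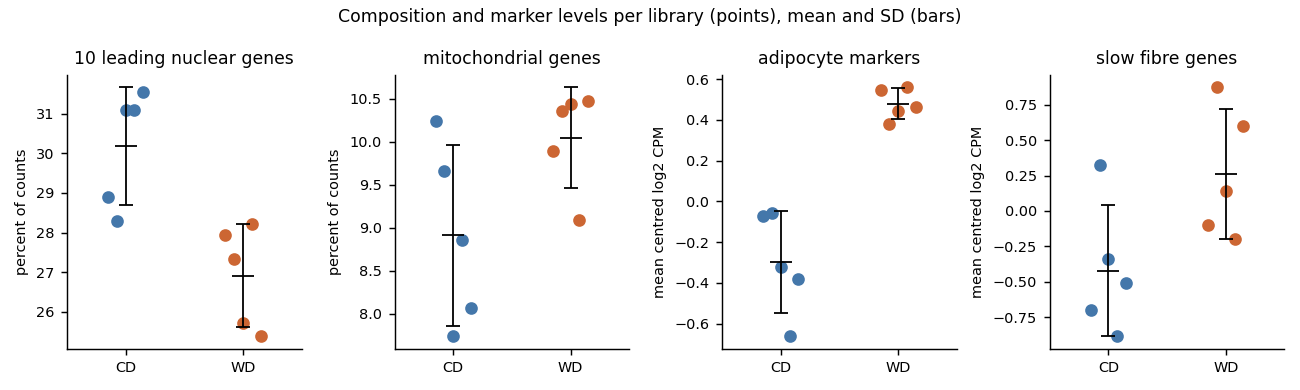
Share of counts in the 10 leading nuclear genes and in mitochondrially encoded genes, and scores of adipocyte markers and slow fibre genes (mean centred log2 CPM), for each of the 5 CD and 5 WD libraries, with the mean and SD as bars. The share of the leading genes (28.3% to 31.6% against 25.4% to 28.2%) and the adipocyte score did not overlap between diets, whereas the other measures did.

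Of 15419 genes tested, 1312 passed an adjusted p of 0.05 (8.51%), with 713 upregulated (4.62%) and 599 downregulated (3.88%) in WD. The test was edgeR's quasi-likelihood F test, two-sided, with Benjamini-Hochberg adjustment, and fold changes are log2 values, WD minus CD, with their standard error (SE). Most changes were small: the median log2 fold change was 0.47 among upregulated genes and -0.36 among downregulated genes, and 155 called genes (1.01%) changed by at least 1 on the log2 scale, 110 of them upward. CPM values did not overlap between the groups for 1209 genes (7.84%), of which 908 were also called. Scaling to the total count instead of TMM moved the split to 1495 upregulated and 335 downregulated genes. Once the adipocyte score entered the model 0 genes were called, the smallest adjusted p being 0.0626 and 1571 genes having an unadjusted p under 0.05 by the same edgeR test. That score separated the diets completely, so its part and that of the diet cannot be told apart in this fit. Under it 94.4% of the 1312 genes kept their direction, with a median of 0.72 times their fold change. With the slow fibre score in the model 276 genes were called, 261 of them among the 1312. All 1312 then kept their direction, with a median of 0.89 times their fold change.

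**Figure D2:**
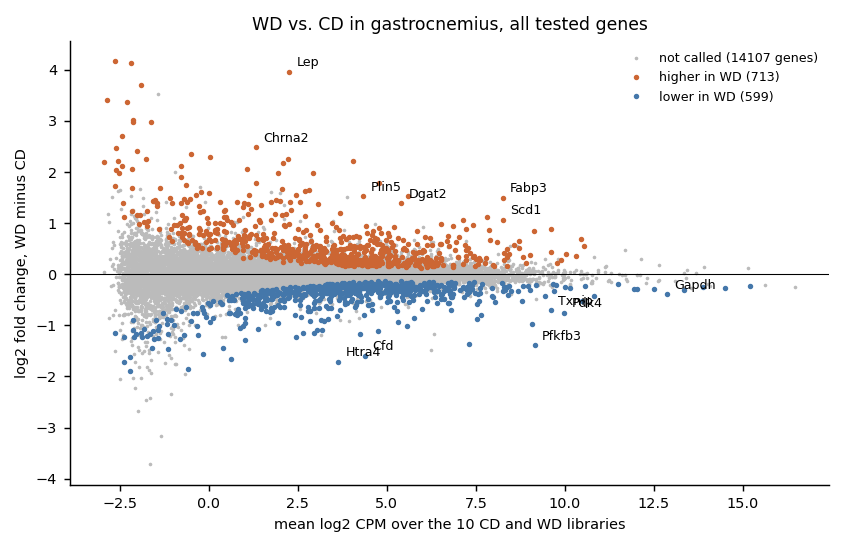
Log2 fold change of WD vs. CD against mean log2 CPM for each of the 15419 tested genes, with the 713 genes higher in WD in orange, the 599 lower in blue and the rest in grey. Genes named in the plot include *Lep* at 3.96 and *Htra4* at -1.71.

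The largest rise among genes that were not scarce (mean log2 CPM of 1 or more) and were separated between diets was that of *Lep* (chr6:29060220-29073877, plus strand, GRCm38), which encodes leptin, the hormone of adipocytes. Its level was 0.561, 1.25, 3.84, 0.570 and 0.711 CPM in CD and 24.9, 23.1, 19.99, 19.4 and 21.1 CPM in WD. The lowest WD library thus lay above the highest CD library, the third, which itself stood apart from the other CD libraries (log2 fold change 3.96 ± 0.48, adjusted p = 0.000404). *Chrna2*, a subunit of nicotinic acetylcholine receptors, was at 1.51, 2.52, 0.662, 0.489 and 0.595 CPM in CD and 7.36, 5.96, 8.02, 3.77 and 7.37 CPM in WD (2.48 ± 0.35, adjusted p = 0.000882). *Rab15*, a small GTPase of vesicle traffic, rose by 2.26 ± 0.25, adjusted p = 0.000119, and *Npr3*, the clearance receptor of natriuretic peptides, by 1.97 ± 0.18, adjusted p = 2.22e-05. A pair of imprinted genes rose, *Mest* (1.98 ± 0.21, adjusted p = 5.98e-05) and *Nnat* (2.06 ± 0.27, adjusted p = 0.000319). Likewise upregulated were the haemoglobin-binding *Hp* (2.21 ± 0.35, adjusted p = 0.00217) and the protease inhibitor *Serpina3n* (1.68 ± 0.21, adjusted p = 0.000203), both secreted in acute-phase responses. The other large rises were those of the deubiquitinase *Otud1* (1.80 ± 0.36) and of *Tmem45b* (1.78 ± 0.22). No CD library reached the lowest WD library in any of these 10 genes, but they were chosen among genes without overlap, so this is no result. *Lep*, *Mest*, *Hp* and *Npr3* are also expressed by white adipocytes. With the score of adipocyte markers in the model 0 of all genes were called, so the missing calls of these 4 are no result. The log2 fold change was then 1.33 for *Mest*, 0.76 for *Hp* and 1.30 for *Npr3*. That of *Lep* was 3.04 (adjusted p = 0.376), but *Lep* is itself one of the markers in the score. For *Nnat*, *Tmem45b* and *Serpina3n* it was 0.70, 0.47 and 0.65, for *Chrna2* and *Rab15* 1.48 and 1.64, and for *Otud1* 2.25, which was larger than without the score. None of these was called.

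The largest falls included *Htra4* (chr8:25024929-25038962, minus strand), a serine protease, with 22.1, 18.0, 26.0, 21.4 and 26.1 CPM in CD and 4.69, 6.95, 8.22, 7.37 and 7.52 CPM in WD. The highest WD library was far below the lowest CD library (-1.71 ± 0.15, adjusted p = 2.22e-05). *Cfd*, encoding the complement factor adipsin, measured 53.0, 48.9, 26.5, 26.3 and 32.5 CPM in CD and 10.1, 9.63, 10.5, 18.4 and 13.2 CPM in WD. It is a marker of adipocytes, yet it fell (-1.59 ± 0.26, adjusted p = 0.00242) while other adipocyte markers rose. *Pfkfb3*, whose product makes the activator of phosphofructokinase, fell by 1.39 on the log2 scale (SE 0.27, adjusted p = 0.00699). *Tph1*, tryptophan hydroxylase, was at 3.37, 3.10, 2.55, 3.38 and 3.19 CPM in CD and 1.53, 1.25, 1.35, 1.24 and 1.01 CPM in WD (-1.29 ± 0.18, adjusted p = 0.000274). *Slc43a1*, a transporter of large neutral amino acids, and *Kcnab1*, a potassium channel subunit, had the same log2 fold change of -1.16 (adjusted p = 0.000251 and 0.00194). The kinase *Pim1* (-1.11 ± 0.20, adjusted p = 0.00419), *Fam83d* (-1.15 ± 0.17, adjusted p = 0.000849), the cardiac actin *Actc1* (-1.36 ± 0.32, adjusted p = 0.0203) and the GTPase regulator *Arhgap26* (-1.09 ± 0.27, adjusted p = 0.0244) completed the 10. *Actc1* lost its call in 2 of 10 fits that left out 1 library, and *Arhgap26* in 3. These falls too were chosen among genes without overlap, so their separation is no result.

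By p-value the first of all genes was *Fads3* (chr19:10041569-10060110, plus strand), a member of the fatty acid desaturase family. It was at 4.74, 4.48, 4.75, 3.85 and 4.01 CPM in CD and 10.2, 9.05, 10.4, 9.82 and 8.44 CPM in WD, about 2.19-fold higher, with no library between the groups (1.13 ± 0.09, adjusted p = 2.80e-06). The next upregulated genes were *Dgat2*, *Dnajb4*, *Decr1* and *Slc25a20*, of which *Dnajb4*, a co-chaperone of the HSP40 family, was at 41.3, 44.6, 43.5, 45.8 and 39.9 CPM in CD and 82.0, 83.3, 79.3, 60.8 and 79.7 CPM in WD (0.84 ± 0.08, adjusted p = 1.90e-05). Among downregulated genes that were not scarce the order by p-value was *Txnip*, *Htra4*, *Pcx*, *Zfp949* and *Mlf1*. *Mlf1* measured 140.1, 116, 137, 134 and 130 CPM in CD and 85.2, 95.0, 78.8, 96.1 and 92.0 CPM in WD (-0.56 ± 0.07, adjusted p = 8.49e-05). The zinc finger gene *Zfp949* fell from 12.7 CPM to 8.00 CPM (-0.66 ± 0.08, adjusted p = 5.98e-05).

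Among the lists other than those of cell type markers, genes of fatty acid uptake and oxidation had the highest share of calls. All 58 listed genes were tested, 29 rose, 3 fell and 26 did not pass (55.2% called against 8.51% of all genes), and their median log2 fold change was 0.28 against 0.001 over all genes. Called members were most frequent in mitochondrial beta-oxidation, where 14 of 16 rose and 0 fell, with a median of 0.50. Of 5 genes of uptake and binding 3 rose, of 12 genes of activation and the carnitine shuttle 4 rose and 1 fell, of 8 peroxisomal genes 3 rose, and of 17 PPAR targets and regulators 5 rose and 2 fell. With the slow fibre score in the model 18 members were called upward and 0 downward. None of the 58 was called with the adipocyte score in the model, but that fit called 0 of all genes, so this is not particular to the group.

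*Cd36*, the fatty acid transporter of the plasma membrane, was at 214, 266, 216, 179 and 221 CPM in CD and 382, 360.2, 355, 263 and 343 CPM in WD. The highest CD library slightly exceeded the lowest WD library, and the rise was 0.64 ± 0.10, adjusted p = 0.00067. *Fabp3*, the fatty acid binding protein of muscle and heart, measured 221, 314, 131, 136 and 143 CPM in CD and 515, 455, 546, 423 and 734 CPM in WD. All WD libraries were above all CD libraries (1.5 ± 0.25, adjusted p = 0.00247). *Fabp3* is also enriched in slow fibres, and the second CD library, highest in the slow fibre score of its group, was highest in *Fabp3* as well. With that score in the model the log2 fold change was 1.16 (adjusted p = 0.0373).

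The carnitine shuttle was represented by *Slc25a20* (chr9:108662088-108684641, plus strand), the carnitine-acylcarnitine carrier of the inner mitochondrial membrane. It was at 60.04, 66.4, 55.3, 50.1 and 56.6 CPM in CD and 99.3, 86.3, 99.8, 85.8 and 99.6 CPM in WD, a 1.63-fold rise without overlap (0.71 ± 0.07, adjusted p = 2.22e-05). *Cpt2*, which reforms acyl-CoA inside the mitochondria, was at 53.3, 60.8, 54.4, 52.4 and 52.6 CPM in CD and 79.8, 76.7, 85.1, 69.0 and 71.4 CPM in WD (0.48 ± 0.06, adjusted p = 8.51e-05). *Cpt1b*, the muscle form of the outer enzyme, was less abundant in these counts, at 2.01, 2.27, 1.60, 1.91 and 2.38 CPM in CD and 1.83, 1.31, 2.14, 2.07 and 4.56 CPM in WD, and did not pass (0.22 ± 0.26, adjusted p = 0.66). Without the fifth WD library, which was the highest, its log2 fold change was -0.15. The sources used here do not say how reads in overlapping genes were counted, so its level is uncertain.

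Within beta-oxidation *Decr1* (chr4:15917240-15945507, minus strand), needed to break down polyunsaturated fatty acids, was at 81.0, 93.1, 78.9, 72.9 and 77.5 CPM in CD and 148, 128, 142, 114 and 148 CPM in WD. Every WD library was above every CD library (0.75 ± 0.07, adjusted p = 2.22e-05). The genes of the trifunctional protein, chosen after their values were seen, are neighbours on chromosome 5 that start 86 bases apart on opposite strands. *Hadha* measured 349.5, 422, 339.6, 318 and 325 CPM in CD and 520.3, 522, 553, 447 and 473 CPM in WD (0.52 ± 0.07, adjusted p = 0.00039). *Hadhb* measured 309, 379, 290.0, 286 and 290.2 CPM in CD and 460.1, 465, 484, 419.6 and 494 CPM in WD (0.58 ± 0.07, adjusted p = 0.000119). The pair had nearly the same fold change, and in both the second CD library was the highest of its group. Within the list the rises extended to electron transfer, with *Etfdh* (0.50 ± 0.07, adjusted p = 0.000344) and *Etfa* (0.34 ± 0.06, adjusted p = 0.00135), and to peroxisomes, with *Pex11a*, which divides them (0.51 ± 0.06, adjusted p = 0.000107). The dehydrogenases *Acadl*, *Acadm* and *Acadvl*, for long, medium and very long chains, also rose, by 0.68 ± 0.09, 0.42 ± 0.06 and 0.49 ± 0.07.

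The 3 members that fell were *Ucp3*, *Pdk4* and *Acsl6*, of which the first 2 are textbook PPAR targets. *Ucp3*, a mitochondrial carrier of muscle, was at 227, 185, 231, 247 and 251 CPM in CD and 154, 168, 147, 171 and 125 CPM in WD (-0.58 ± 0.12, adjusted p = 0.00549). *Pdk4*, the kinase that switches off pyruvate dehydrogenase, was at 1415, 1447, 1234, 1043 and 1472 CPM in CD and 920.2, 814, 849, 695 and 635 CPM in WD (-0.76 ± 0.15, adjusted p = 0.00669). Neither overlapped between diets, so these 2 moved opposite to the oxidation enzymes in the same libraries. Of the 17 listed PPAR targets and regulators, 5 rose. *Acsl6*, an acyl-CoA synthetase, fell less (-0.16 ± 0.04, adjusted p = 0.0124). The PPAR target *Angptl4*, an inhibitor of lipoprotein lipase, measured 12.4, 25.0, 6.76, 6.33 and 5.61 CPM in CD and 8.54, 6.42, 8.70, 6.48 and 4.84 CPM in WD and did not pass (-0.68 ± 0.37, adjusted p = 0.296). Its highest value came from the second CD library, and without CD libraries 1 and 2 its fold change was 0.17. *Ppargc1a*, the coactivator of mitochondrial biogenesis, did not pass either (-0.21 ± 0.19, adjusted p = 0.54). The direct repeat that PPAR binds (a pair of AGGTCA half-sites with 1 base of any kind between them) was in the windows of 0 of 29 called genes of this list that had one, against 0.0396% of all windows from 250 bases before to 50 after a gene's start (RefSeq, GRCm38.p6, either strand). At so low a share, absence from 29 windows says nothing about PPAR binding. The half-site AGGTCA of the repeat, common to many nuclear receptors and searched after the values were seen, was in 7 of the 29, against 16.3% of all windows.

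**Figure D3:**
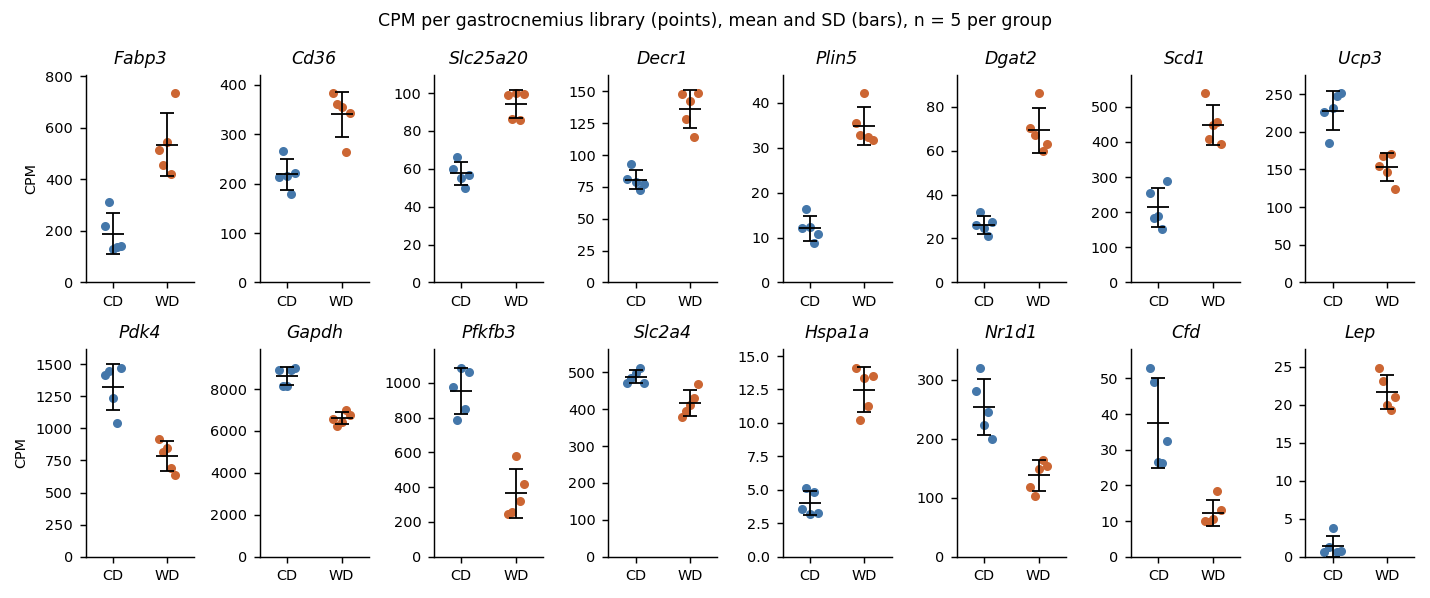
CPM of 16 genes in each of the 5 CD (blue) and 5 WD (orange) gastrocnemius libraries, with the mean and SD as bars and each axis starting at 0. Genes of fatty acid use such as *Slc25a20* and *Plin5* lie higher in all WD libraries, and *Pdk4*, *Gapdh* and *Pfkfb3* lie lower.

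Of 13 lipid droplet and lipolysis genes tested, 4 rose, 0 fell and 9 did not pass (30.8% called against 8.51% of all genes). Their median was 0.19, and 0.12 without the fifth CD library. *Plin5* (chr17:56111601-56117596, minus strand), the perilipin that ties droplets to mitochondria in oxidative tissue, was at 12.2, 16.3, 12.3, 8.71 and 10.7 CPM in CD and 35.5, 32.8, 42.1, 32.4 and 31.6 CPM in WD, a 2.89-fold rise (1.53 ± 0.14, adjusted p = 3.70e-05). The highest CD library lay well below the lowest WD library. *G0s2*, an inhibitor of triglyceride lipase, was at 2.75, 3.78, 2.18, 1.83 and 1.77 CPM in CD and 7.64, 5.26, 7.75, 6.24 and 6.57 CPM in WD (1.44 ± 0.24, adjusted p = 0.00196). The monoglyceride lipase *Mgll* rose by 0.44 ± 0.07, adjusted p = 0.000504, and *Pnpla3* by 0.66 ± 0.18, adjusted p = 0.0333, with overlap and with the call lost in 7 of 10 fits that left out 1 library. *Plin2*, a perilipin found in most cells, was at 26.8 to 33.9 CPM in CD and 29.2 to 39.4 CPM in WD and did not pass (0.19 ± 0.08, adjusted p = 0.172).

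Synthesis of fatty acids and triglyceride split into rising and falling members. Of 26 tested, 4 rose and 5 fell (34.6% called against 8.51% of all genes), and the median was 0.001 (-0.015 to 0.019 when 1 library was left out). With total-count scaling 6 rose and 3 fell, with a median of 0.07. *Dgat2* (chr7:99153658-99182719, minus strand), which makes triglyceride from diacylglycerol, was at 26.1, 32.3, 24.6, 21.2 and 27.5 CPM in CD and 70.4, 67.0, 86.0, 59.8 and 62.8 CPM in WD (1.39 ± 0.12, adjusted p = 1.90e-05). *Agpat2*, an earlier step of the same path, was at 4.37, 5.32, 3.82, 2.59 and 5.13 CPM in CD and 8.18, 6.498, 8.41, 7.97 and 8.21 CPM in WD (0.89 ± 0.16, adjusted p = 0.00234), and *Scd1*, the stearoyl-CoA desaturase, was at 254, 184, 189.8, 153 and 288 CPM in CD and 538, 409, 447, 456 and 394 CPM in WD (1.07 ± 0.19, adjusted p = 0.00395). All 3 were without overlap. The fourth gene that rose was *Elovl1*, an elongase, with overlap between diets. *Fasn*, fatty acid synthase, was at 80.6, 61.2, 66.2, 52.9 and 118 CPM in CD and 48.0, 38.3, 44.2, 49.9 and 28.8 CPM in WD (-0.86 ± 0.21, adjusted p = 0.0218), and the call was lost without the second WD library (log2 fold change -0.83). *Acaca* (-0.45 ± 0.10), *Acly* (-0.41 ± 0.10) and *Elovl6* (-0.68 ± 0.19) fell too, each with overlap between diets. *Lpin1*, a phosphatidate phosphatase, was at 467, 498, 583, 546 and 594 CPM in CD and 375, 369.7, 381, 401 and 348 CPM in WD (-0.52 ± 0.08, adjusted p = 0.00095). *Srebf1*, the regulator of these genes, did not pass (0.18 ± 0.08, adjusted p = 0.161).

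Adipocytes also express many of these storage genes at high level, and their own markers moved in the same libraries. Of 20 adipocyte markers tested, 10 rose and 1 fell (55.0% called against 8.51% of all genes), and the median was 0.61. *Adipoq*, adiponectin, was at 10.9, 9.50, 6.82, 5.60 and 6.63 CPM in CD and 17.0, 14.7, 15.6, 17.2 and 14.6 CPM in WD (1.00 ± 0.18, adjusted p = 0.00304). *Cidec* was at 5.53, 4.43, 6.00, 3.95 and 5.99 CPM in CD and 16.3, 12.8, 12.9, 14.2 and 11.4 CPM in WD (1.38 ± 0.19, adjusted p = 0.000504) and *Plin1* at 10.7, 9.54, 7.05, 7.76 and 8.41 CPM in CD and 20.5, 15.5, 17.6, 16.9 and 12.2 CPM in WD (0.93 ± 0.16, adjusted p = 0.00199), both coats of the large droplets of fat cells. *Cidea* reached only 0.102 to 0.492 CPM in CD and 0.831 to 1.40 CPM in WD (2.12 ± 0.31, adjusted p = 0.000442). With the marker score in the model the log2 fold change was 0.56 for *Decr1*, 0.85 for *Plin5*, 0.94 for *Dgat2* and 0.26 for *Scd1*. None of them was called, as that fit called 0 of all genes. The part of adipocytes in these changes was not tested in any other way.

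Cholesterol genes were called in both directions. Of 31 tested, 4 rose and 2 fell (19.4% called against 8.51% of all genes). The median was 0.06, and 0.025 without CD library 3 and 0.105 without CD library 5. With total-count scaling 6 rose and 1 fell, with a median of 0.13. The liver X receptor target *Abcg1*, a sterol exporter, was at 2.42, 2.72, 1.97, 1.95 and 2.54 CPM in CD and 5.66, 4.93, 5.79, 3.56 and 4.19 CPM in WD (1.06 ± 0.16, adjusted p = 0.00067). *Npc1*, which releases cholesterol from lysosomes, was at 118, 111, 102, 126 and 121 CPM in CD and 89.6, 84.9, 69.9, 85.8 and 80.3 CPM in WD (-0.49 ± 0.07, adjusted p = 0.000274). Neither gene overlapped between diets. Of 20 synthesis genes 3 rose and 1 fell. *Mvd* (0.76 ± 0.17, adjusted p = 0.00922) and *Lss* (0.34 ± 0.09, adjusted p = 0.0217) rose with overlap, *Lss* with its call lost in 2 of 10 fits that left out 1 library.

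Calls among glycolysis and glycogen genes were mostly downward. Of 35 tested, 13 fell and 2 rose (42.9% called against 8.51%), and the median was -0.19. In the glycolytic steps proper 9 of 18 fell and 0 rose, whereas 2 of 11 glycogen genes fell and 1 rose, and 2 of 6 transport genes fell and 1 rose. With total-count scaling 9 of the 35 fell and 3 rose, with a median of -0.12. *Gapdh* (chr6:125161715-125166467, minus strand), often used as a reference gene, was at 8907, 8123, 8154, 8919 and 9016 CPM in CD and 6588, 6258, 6424, 6991 and 6748 CPM in WD. All WD libraries were below all CD libraries (-0.39 ± 0.05, adjusted p = 0.000341). *Pgk1* was at 951, 821, 939.6, 982 and 914 CPM in CD and 751, 712, 724, 751 and 725 CPM in WD (-0.33 ± 0.06, adjusted p = 0.00136) and *Pfkm*, the muscle phosphofructokinase, at 4294, 4253, 4628, 4968 and 4772 CPM in CD and 3934, 3519.6, 3933, 3722 and 3646 CPM in WD (-0.29 ± 0.06, adjusted p = 0.00375). Both had complete separation of the diets at small changes in level. *Pfkfb3* showed the largest fall of the group, with 978, 786, 1087, 849 and 1065 CPM in CD and 245, 259, 579, 318 and 419 CPM in WD. *Slc16a1*, a carrier of lactate and pyruvate, rose instead, with 36.0, 39.1, 35.0, 37.5 and 39.0 CPM in CD and 55.1, 55.2, 61.5, 43.4 and 47.5 CPM in WD (0.49 ± 0.09, adjusted p = 0.00188). Fast fibres are rich in glycolytic enzymes, and with the slow fibre score in the model only *Gapdh* of this group was called, at -0.32 (adjusted p = 0.0160). The fold change of *Pfkfb3* was then -1.27 (adjusted p = 0.0977).

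The gene of the main glucose transporter of muscle fell as well. *Slc2a4*, the insulin-responsive transporter GLUT4, was at 472, 486, 497, 512 and 471 CPM in CD and 378, 394, 412, 429 and 469 CPM in WD, just without overlap (-0.23 ± 0.06, adjusted p = 0.0297), and the call was lost in 5 of 10 fits that left out 1 library and under total-count scaling. *Hk2*, hexokinase 2, was at 361 to 460.1 CPM in CD and 382 to 496 CPM in WD (0.02 ± 0.08, adjusted p = 0.888), and the glycogen synthase gene *Gys1* at 453 to 507 CPM in CD and 441 to 515 CPM in WD (-0.02 ± 0.06, adjusted p = 0.898), so neither passed.

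**Figure D4:**
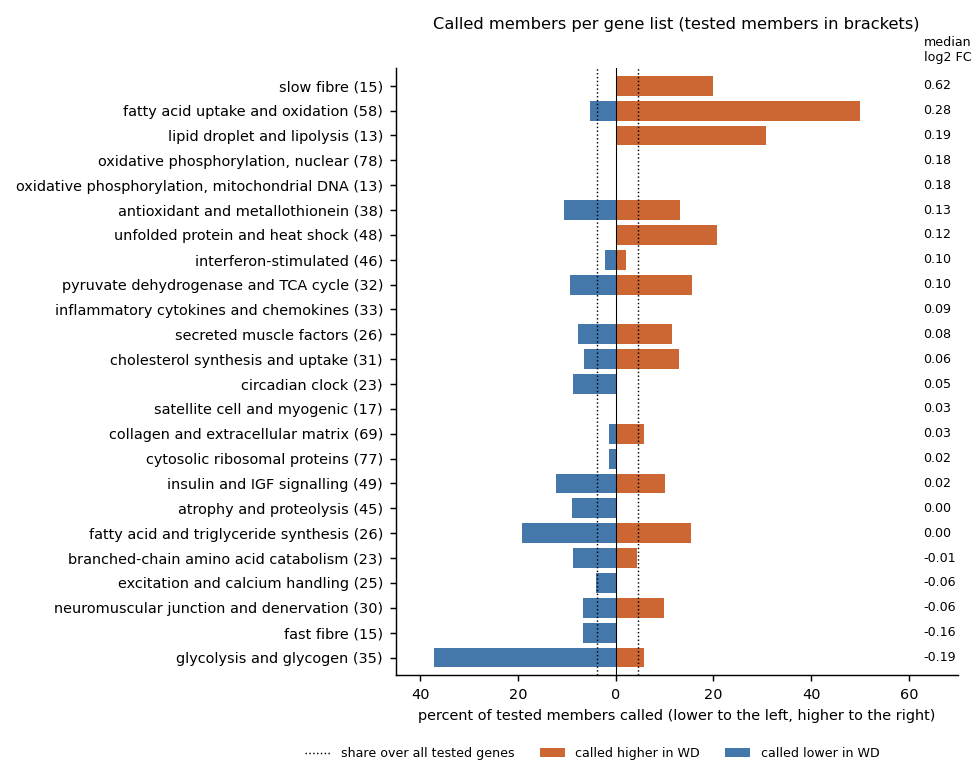
Percent of the tested members of 24 gene lists that were called higher (orange, right) or lower (blue, left) in WD, with the median log2 fold change of each list at the right and dotted lines at the shares over all tested genes. Among these lists fatty acid uptake and oxidation stands out to the right and glycolysis and glycogen to the left. Lists of cell type markers are not drawn, among them the adipocyte markers, of which 10 of 20 were called higher.

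Of 32 genes of pyruvate dehydrogenase and the citrate cycle, 5 rose and 3 fell (25.0% called against 8.51% of all genes), with a median of 0.10, and with total-count scaling 10 rose and 3 fell. *Pcx*, pyruvate carboxylase, was at 142, 115, 123, 132 and 124 CPM in CD and 84.5, 82.7, 91.8, 93.5 and 78.6 CPM in WD (-0.56 ± 0.06, adjusted p = 3.91e-05). *Pdp2*, a phosphatase that reactivates pyruvate dehydrogenase, was at 9.44, 9.25, 8.14, 7.51 and 8.70 CPM in CD and 6.18, 6.01, 5.45, 4.76 and 5.03 CPM in WD (-0.65 ± 0.08, adjusted p = 0.000157). The kinase gene *Pdk4* fell too, whereas another kinase gene of the complex, *Pdk1* (0.22 ± 0.06, adjusted p = 0.0179), and its subunits *Pdhx* (0.16 ± 0.04, adjusted p = 0.0222) and *Dlat* (0.15 ± 0.05, adjusted p = 0.0443) rose. *Mdh1*, cytosolic malate dehydrogenase, rose (0.35 ± 0.08, adjusted p = 0.0118). The 78 nuclear genes of oxidative phosphorylation held 0 calls by edgeR, 4 by DESeq2, 1 by limma-voom and 8 with total-count scaling, although 76 of them lay above 0 with a median of 0.18 and 15 had an unadjusted p under 0.05. With the adipocyte score in the model that median was -0.11, and without the fifth WD library it was 0.0044. The 13 genes encoded in mitochondrial DNA held 0 calls by edgeR, DESeq2 and limma-voom, 1 with total-count scaling and 1 unadjusted p under 0.05, with 12 above 0 and a median of 0.18, which was 0.073 without the fifth WD library. *mt-Co1* was at 38389, 36315, 31232, 35631 and 32337 CPM in CD and 37154, 39605, 38704, 35324 and 39187 CPM in WD (0.13 ± 0.06, adjusted p = 0.24), and *mt-Nd1* did not pass either (0.09 ± 0.08, adjusted p = 0.518). Catabolism of branched-chain amino acids had 3 calls among 23 genes (13.0% against 8.51% of all genes). *Ppm1k*, which activates the branched-chain keto acid dehydrogenase, was at 11.4, 12.2, 12.2, 11.7 and 12.1 CPM in CD and 9.74, 9.36, 9.47, 8.29 and 10.4 CPM in WD (-0.34 ± 0.06, adjusted p = 0.00157), and *Hibch* (0.19 ± 0.05, adjusted p = 0.0286) and *Mccc1* (-0.14 ± 0.04, adjusted p = 0.0357) changed by small amounts and lost their calls in 4 and 7 of 10 fits that left out 1 library.

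Insulin and IGF signalling genes were called in both directions, 5 upward and 6 downward of 49 (22.4% against 8.51% of all genes). The median was 0.02 and turned to -0.0029 without the first CD library. With total-count scaling 10 were called upward and 5 downward. *Tbc1d1*, a Rab-GTPase activating protein that holds GLUT4 vesicles, was at 55.3, 54.0, 51.3, 63.3 and 40.7 CPM in CD and 101, 95.8, 96.7, 73.6 and 71.7 CPM in WD (0.73 ± 0.11, adjusted p = 0.000884). *Akt2*, the main insulin-responsive AKT kinase, was at 349.7, 357, 362, 386 and 374 CPM in CD and 298, 308, 305, 327 and 296 CPM in WD, a small shift without overlap (-0.25 ± 0.05, adjusted p = 0.00344). *Igfbp5*, a binding protein of the growth factor IGF1, was at 807, 827, 788, 737 and 876 CPM in CD and 615, 661, 601, 606 and 514 CPM in WD (-0.43 ± 0.08, adjusted p = 0.00239), and the kinase gene *Prkcq* was at 98.5, 97.4, 119, 114 and 116 CPM in CD and 86.4, 90.3, 84.2, 91.3 and 79.6 CPM in WD (-0.34 ± 0.06, adjusted p = 0.00333). *Igf1* itself was at 13.8, 12.4, 11.4, 13.3 and 9.97 CPM in CD and 9.65, 8.00, 9.23, 6.04 and 6.72 CPM in WD (-0.62 ± 0.17, adjusted p = 0.034) and lost its call in 7 of 10 fits that left out 1 library. The receptor and its adaptors did not pass, namely *Insr* (0.01 ± 0.07, adjusted p = 0.925), *Irs1* (0.12 ± 0.24, adjusted p = 0.82) and *Irs2* (-0.45 ± 0.21, adjusted p = 0.21).

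Of 15 slow fibre genes 3 rose and 0 fell (20% called against 8.51% of all genes). All 15 slow fibre genes lay above 0, with a median of 0.62, but only *Csrp3*, *Ankrd2* and *Mb* were called. *Csrp3*, muscle LIM protein of the Z-disc, was at 25.6, 56.2, 18.9, 24.4 and 23.8 CPM in CD and 78.9, 70.9, 126, 62.3 and 93.3 CPM in WD (1.53 ± 0.34, adjusted p = 0.0143). *Ankrd2*, which responds to stretch, was at 64.2, 105, 52.7, 53.1 and 60.9 CPM in CD and 110.1, 128, 172, 116 and 137 CPM in WD (0.98 ± 0.22, adjusted p = 0.0145). In both genes the second CD library stood apart from the other CD libraries, yet below every WD library. Myoglobin, *Mb*, was at 1376, 1609.7, 812, 919 and 899 CPM in CD and 1621, 1691, 2078, 1635 and 2092 CPM in WD (0.70 ± 0.18, adjusted p = 0.0294), with the call lost in 5 of 10 fits that left out 1 library. The myosin of slow fibres, *Myh7*, spread widely inside each diet, at 186, 639.5, 547, 212 and 334 CPM in CD and 363, 1280.3, 432, 257 and 472 CPM in WD (0.55 ± 0.46, adjusted p = 0.514), and without the second WD library its fold change was -0.01.

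Among 15 fast fibre genes 0 rose and 1 fell (6.67% called against 8.51% of all genes), and DESeq2 called 3. The 1 called by edgeR was *Myl1* (-0.30 ± 0.09, adjusted p = 0.0434), with overlap, and 13 lay below 0, with a median of -0.16. *Myl1* was called in 4 of 10 fits that left out 1 library and lost its call under total-count scaling. In the separate list of 12 fast muscle fibre markers 2 fell (16.7% called against 8.51% of all genes), and the median was -0.19. These 2 were the skeletal actin *Acta1* (-0.22 ± 0.06, adjusted p = 0.0196) and the creatine kinase *Ckm* (-0.26 ± 0.07, adjusted p = 0.0199). *Myh4*, the myosin of type IIb fibres and the most abundant nuclear gene, was at 86283, 83538, 105441, 113259 and 106767 CPM in CD and 98283, 87084, 77471, 84321 and 68089 CPM in WD (-0.25 ± 0.10, adjusted p = 0.144). *Myh2* of type IIa fibres (0.48 ± 0.19, adjusted p = 0.14) and *Myh1* of type IIx fibres (0.31 ± 0.11, adjusted p = 0.0991) did not pass. Of 25 genes of excitation and calcium handling 1 was called (4% against 8.51% of all genes). It was *Cacnb1* (-0.23 ± 0.07, adjusted p = 0.0348), and it lost the call in 7 of 10 fits that left out 1 library.

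The neuromuscular junction showed a few separate changes among 30 tested genes, 3 upward and 2 downward (16.7% called against 8.51% of all genes), and 6 upward and 2 downward with total-count scaling. *Dok7*, the adaptor of the MuSK receptor, was at 13.3, 14.1, 14.3, 16.3 and 14.9 CPM in CD and 20.5, 21.1, 19.2, 23.4 and 21.1 CPM in WD (0.53 ± 0.10, adjusted p = 0.00276). *Chrne*, the adult receptor subunit, was at 15.4, 15.9, 18.7, 15.9 and 18.5 CPM in CD and 10.7, 10.9, 13.3, 14.4 and 14.3 CPM in WD (-0.41 ± 0.09, adjusted p = 0.011), and *Colq*, which anchors acetylcholinesterase, was at 9.79, 11.7, 12.9, 12.0 and 11.6 CPM in CD and 7.76, 9.29, 8.94, 9.95 and 8.92 CPM in WD (-0.37 ± 0.08, adjusted p = 0.0068). *Chrna1*, the subunit common to fetal and adult receptors, did not pass (-0.15 ± 0.09, adjusted p = 0.293). *Gdf5* and *Ankrd1* made up the other rises, *Gdf5* from very low levels, 0.0195 to 0.116 CPM in CD and 0.191 to 0.438 CPM in WD (2.11 ± 0.46, adjusted p = 0.00746). The medians of this list and of the excitation list were both -0.06, and both were 0.01 under total-count scaling, so their signs changed with the scaling.

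Atrophy genes were called about as often as all genes. Of 45 tested, 0 rose and 4 fell (8.89% against 8.51%; 1 rose and 2 fell with total-count scaling), among them *Atg14* (-0.31 ± 0.07, adjusted p = 0.00624) and *Ulk1* (-0.36 ± 0.10, adjusted p = 0.0285), both acting in autophagy, and *Ubb* (-0.22 ± 0.06, adjusted p = 0.0322), which encodes ubiquitin. *Atg14* was called in 10 of 10 fits that left out 1 library, *Ulk1* in 3 and *Ubb* in 2. The ubiquitin ligase *Fbxo32* was at 900.0, 710.2, 624, 635 and 639 CPM in CD and 604, 536, 453, 399 and 504 CPM in WD, without overlap yet just short of the threshold (-0.49 ± 0.15, adjusted p = 0.0513), and *Trim63* did not pass (-0.23 ± 0.17, adjusted p = 0.436). Myostatin, *Mstn*, had -0.06 ± 0.12, adjusted p = 0.806. Among 17 genes of satellite cells and myogenesis 0 were called by edgeR and limma-voom and 1 by DESeq2, and 4 had an unadjusted p under 0.05, and *Pax7* (0.19 ± 0.14, adjusted p = 0.434), *Myod1* (0.33 ± 0.13, adjusted p = 0.135) and *Myog* (0.43 ± 0.21, adjusted p = 0.232) did not pass.

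Chaperone genes were called in 1 direction only, upward. Heat shock proteins refold damaged proteins and are induced by the factor HSF1, which binds inverted repeats of GAA. Of 48 genes of the unfolded protein and heat shock list, 10 rose and 0 fell (20.8% called against 8.51% of all genes), and the median was 0.12. The calls lay in the cytosolic heat shock genes, with 7 of 19, and in the integrated stress response, with 3 of 13, whereas 0 of 16 genes of endoplasmic reticulum stress were called by edgeR and limma-voom and 1 by DESeq2, with 3 at an unadjusted p under 0.05. The 200 bases before the start of 4 called genes, chosen because they hold the letters GAANNTTC, are printed from RefSeq (GRCm38.p6), 5′ to 3′ on the strand of the gene, with those letters in capitals to show where they lie.
*Hspa1a* (chr17:34972157-34972356, minus strand): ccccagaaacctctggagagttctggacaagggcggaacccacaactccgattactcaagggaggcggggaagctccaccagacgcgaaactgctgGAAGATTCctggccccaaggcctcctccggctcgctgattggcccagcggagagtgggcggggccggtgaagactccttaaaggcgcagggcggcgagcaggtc
*Hspa1b* (chr17:34959239-34959438, minus strand): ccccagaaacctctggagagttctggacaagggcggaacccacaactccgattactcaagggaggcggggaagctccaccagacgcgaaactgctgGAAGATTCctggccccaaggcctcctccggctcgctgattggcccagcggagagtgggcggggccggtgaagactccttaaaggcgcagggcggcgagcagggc
*Dnaja1* (chr4:40722268-40722467, plus strand): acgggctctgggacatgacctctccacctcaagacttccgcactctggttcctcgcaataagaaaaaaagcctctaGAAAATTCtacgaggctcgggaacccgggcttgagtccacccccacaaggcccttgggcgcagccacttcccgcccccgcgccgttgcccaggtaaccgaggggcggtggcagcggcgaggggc
*Hspb6* (chr7:30553101-30553300, plus strand): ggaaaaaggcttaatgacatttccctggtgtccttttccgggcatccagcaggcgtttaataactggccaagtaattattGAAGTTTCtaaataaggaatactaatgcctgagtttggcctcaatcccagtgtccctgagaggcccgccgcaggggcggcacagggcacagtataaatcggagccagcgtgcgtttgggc

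The letters began 104 bases before the start of *Hspa1a* and of *Hspa1b*, 124 bases before that of *Dnaja1* and 120 before that of *Hspb6*. In the windows of 250 bases before to 50 after the start, read on both strands, 5 of 9 called genes of the list that had a window held them, the fifth being *Bag3*, against 7.86% of 32851 windows of all genes. The letters were chosen after the values were seen, and a match is a description and not a site. *Hspa1a* and *Hspa1b* were identical at 199 of the 200 bases printed and encode nearly the same protein, so how reads were divided between them is uncertain.

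*Hspa1a*, the inducible HSP70, was at 3.60, 5.11, 3.18, 4.80 and 3.28 CPM in CD and 14.1, 10.2, 13.4, 11.3 and 13.5 CPM in WD, a 3.13-fold rise (1.64 ± 0.21, adjusted p = 0.000344). Its copy *Hspa1b* was at 2.90, 3.99, 2.77, 3.77 and 2.71 CPM in CD and 11.3, 8.18, 11.4, 7.40 and 9.03 CPM in WD (1.55 ± 0.23, adjusted p = 0.00114). In both genes the lowest WD library lay well above the highest CD library. *Dnaja1*, an HSP40 partner of HSP70, was at 32.8, 31.3, 35.4, 30.5 and 30.0 CPM in CD and 49.8, 42.0, 44.0, 41.8 and 41.3 CPM in WD (0.45 ± 0.09, adjusted p = 0.00397), and the co-chaperone *Bag3* was at 118 to 148 CPM in CD and 156 to 172 CPM in WD (0.35 ± 0.07, adjusted p = 0.00353). The small heat shock genes *Cryab* (0.65 ± 0.13, adjusted p = 0.00608) and *Hspb6* (0.38 ± 0.08, adjusted p = 0.0083) rose as well, *Hspb6* with overlap. The serine synthesis genes *Phgdh*, at 3.02, 2.72, 1.91, 1.97 and 2.09 CPM in CD and 3.77, 4.33, 3.49, 4.12 and 3.54 CPM in WD (0.71 ± 0.13, adjusted p = 0.00217), and *Psat1*, at 1.53, 2.12, 1.46, 1.02 and 1.34 CPM in CD and 2.80, 3.02, 2.74, 2.10 and 3.06 CPM in WD (0.87 ± 0.16, adjusted p = 0.00222), and the stress factor *Atf3* (1.62 ± 0.31, adjusted p = 0.00622) made up the integrated stress response calls. With the slow fibre score in the model 3 members of the list were called, all upward.

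Antioxidant genes were called in both directions, 5 upward and 4 downward of 38 (23.7% against 8.51% of all genes), and 7 upward and 1 downward with total-count scaling. *Txnip* (chr3:96557957-96561883, plus strand), which inhibits thioredoxin and glucose uptake and is induced by glucose, was at 944, 1101, 1019, 929 and 995 CPM in CD and 592, 612, 688, 583 and 579.8 CPM in WD (-0.71 ± 0.07, adjusted p = 2.22e-05). The diets were separated by more than 200 CPM. *Cat*, the peroxisomal catalase, was at 84.6, 92.2, 83.7, 79.9 and 75.9 CPM in CD and 147, 139.5, 145, 104 and 119 CPM in WD (0.65 ± 0.08, adjusted p = 0.000154). *Srxn1*, sulfiredoxin, was at 18.8, 19.6, 20.2, 22.0 and 21.5 CPM in CD and 30.6, 27.1, 27.1, 28.3 and 30.0 CPM in WD (0.49 ± 0.06, adjusted p = 9.78e-05), and *Prdx6* was at 61.7, 63.5, 57.6, 57.3 and 57.7 CPM in CD and 67.4, 70.7, 73.1, 70.2 and 77.4 CPM in WD (0.27 ± 0.05, adjusted p = 0.00167). The metallothioneins *Mt1* (0.68 ± 0.31, adjusted p = 0.209) and *Mt2* (1.03 ± 0.38, adjusted p = 0.112) did not pass, and without the fifth WD library, the highest in both, the fold changes were 0.23 and 0.52. *Mt1* was at 3.31, 3.08, 2.94, 2.40 and 3.71 CPM in CD and 3.64, 3.91, 3.45, 3.47 and 10.2 CPM in WD. The letters TGACNNNGC of the antioxidant element were in the windows of 2 of 6 called genes that had a window, *Srxn1* and *Pgd*, against 12.4% of all windows.

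Clock genes set CD libraries 1 and 2 apart from the others. Of 23 tested, 0 rose and 2 fell (8.70% against 8.51% of all genes). *Nr1d1*, encoding the repressor REV-ERB alpha, was at 281, 321, 224, 246 and 199 CPM in CD and 118, 104, 149.6, 164 and 154 CPM in WD (-0.88 ± 0.16, adjusted p = 0.00375). *Per1*, a repressor that peaks later in the cycle, was at 30.6, 14.6, 92.4, 52.3 and 74.7 CPM in CD and 71.3, 88.0, 41.5, 78.5 and 87.6 CPM in WD (0.47 ± 0.47, adjusted p = 0.599). CD libraries 1 and 2 were thus lower in *Per1* than all other libraries and higher in *Nr1d1* than all others. *Per2* showed the pattern of *Per1*, at 4.49, 3.92, 21.3, 12.5 and 14.9 CPM in CD and 24.0, 24.6, 16.6, 22.5 and 16.6 CPM in WD (0.87 ± 0.42, adjusted p = 0.24), and the activator *Arntl* the opposite, at 32.6, 35.8, 17.8, 26.7 and 18.0 CPM in CD and 17.8, 16.5, 21.4, 15.3 and 19.5 CPM in WD (-0.53 ± 0.28, adjusted p = 0.27). *Per3* (0.36 ± 0.21, adjusted p = 0.329) and *Dbp* (0.05 ± 0.36, adjusted p = 0.958) did not pass, and *Csnk1e*, a kinase of PER proteins, fell by 0.14 (SE 0.04, adjusted p = 0.0399) but was called in only 1 of 10 fits that left out 1 library. Without CD libraries 1 and 2, 1474 genes were called, 984 of them among the 1312, and the time of day of collection was not given in the sources used here. Neither the E-box letters CACGTG nor the D-box letters TTATGNAA were in the windows of *Nr1d1* and *Csnk1e*, against 7.15% and 3.38% of all windows. Absence from these 2 windows says little.

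Of 33 cytokine and chemokine genes 0 were called by edgeR and limma-voom and 1 by DESeq2, with 6 at an unadjusted p under 0.05, where 8.51% of all genes were called. Of 46 interferon-stimulated genes 1 rose, *Oas2*, at 2.65, 2.50, 2.82, 2.22 and 2.63 CPM in CD and 3.66, 4.19, 3.71, 3.53 and 4.25 CPM in WD (0.59 ± 0.13, adjusted p = 0.00651), and 1 fell, *Gbp7*, at 10.0, 6.81, 9.19, 10.4 and 7.93 CPM in CD and 5.22, 5.47, 6.60, 4.597 and 5.19 CPM in WD (-0.71 ± 0.12, adjusted p = 0.00149), which is 4.35% called. *Irf7* did not pass (0.24 ± 0.16, adjusted p = 0.384). All 23 macrophage markers lay above 0, with a median of 0.26 (0.15 without the first WD library and 0.39 without the first CD library), but only *Itgax* (4.35%) was called (0.96 ± 0.26, adjusted p = 0.0273), while *Adgre1* (0.26 ± 0.24, adjusted p = 0.556) and *Cd68* (0.58 ± 0.19, adjusted p = 0.0677) were not. Their summed level was 142 to 216 CPM in CD and 164 to 216 CPM in WD.

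Of 69 collagen and matrix genes 4 rose and 1 fell (7.25% against 8.51%), and 9 rose and 0 fell with total-count scaling. *Eln*, elastin, was at 26.6, 28.8, 18.0, 24.1 and 24.1 CPM in CD and 35.1, 32.9, 27.8, 35.3 and 31.4 CPM in WD (0.42 ± 0.10, adjusted p = 0.0129), and *Tgfb2* was at 20.9, 21.8, 23.7, 20.9 and 19.8 CPM in CD and 24.3, 26.0, 24.0, 25.0 and 25.1 CPM in WD (0.22 ± 0.05, adjusted p = 0.0185), with the call lost in 2 of 10 fits that left out 1 library. *Col18a1* (0.34 ± 0.09, adjusted p = 0.0301) rose and *Col6a6* (-0.43 ± 0.12, adjusted p = 0.0279) fell, each with overlap. They were called in 5 and 3 of 10 fits that left out 1 library, and *Col6a6* lost its call under total-count scaling. The fibrillar collagens *Col1a1* (-0.26 ± 0.29, adjusted p = 0.649) and *Col3a1* (-0.18 ± 0.22, adjusted p = 0.66) did not pass, and the sums of 12 fibroblast markers overlapped widely, 680 to 1074 CPM in CD and 713 to 1015 CPM in WD. Of 26 secreted muscle factors 3 rose and 2 fell (19.2% called against 8.51% of all genes). Besides *Lep* these were *Fgf1*, at 25.4, 29.9, 21.4, 19.2 and 23.0 CPM in CD and 34.2, 39.1, 37.5, 33.2 and 33.9 CPM in WD (0.58 ± 0.11, adjusted p = 0.00512), *Metrnl*, at 3.25, 4.05, 3.53, 2.61 and 2.52 CPM in CD and 4.59, 4.57, 4.79, 4.19 and 4.29 CPM in WD (0.49 ± 0.12, adjusted p = 0.0138), *Igf1* and *Bmp4*. Of 77 cytosolic ribosomal protein genes 1 was called (1.30% against 8.51% of all genes), and DESeq2 called 2. The endothelial marker *Pecam1* was at 71.4 to 79.8 CPM in CD and 69.8 to 78.3 CPM in WD (-0.03 ± 0.05, adjusted p = 0.713).

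Kidney libraries of the same diets, 5 of each, allowed the diet effect to be compared between tissues. In kidney 1619 of 17120 genes were called (9.46%), and of 13943 genes tested in both tissues the effect differed for 860 (6.17%) in a joint edgeR model that took all libraries as independent. For 30 of the 57 fatty acid genes tested in both tissues the effect differed, and in kidney 4 of the 57 rose and 10 fell. *Plin5* rose in gastrocnemius and had -0.40 ± 0.12 in kidney (adjusted p = 0.0379), a difference of 1.93 ± 0.19 (adjusted p = 2.70e-07). *Cd36* had -0.15 ± 0.07 in kidney (difference 0.79 ± 0.13, adjusted p = 0.0002). *Pdk4* fell in both tissues and further in kidney, at -2.10 ± 0.29 (difference 1.34 ± 0.32, adjusted p = 0.0117). *Gapdh* moved in opposite directions, with 0.28 ± 0.05 in kidney (adjusted p = 0.00117) and a difference of -0.66 ± 0.07 (adjusted p = 2.70e-07), and so did *Slc2a4*, with 0.37 ± 0.06 in kidney (adjusted p = 0.000489).

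The 5 smallest p-values of the tissue difference belonged to *Fads3*, *Spns2*, *Npr3*, *Plin5* and *Gapdh*. *Spns2*, a transporter of sphingosine 1-phosphate, was at 123, 145, 126, 141 and 179 CPM in CD and 90.2, 83.7, 89.0, 91.2 and 82.6 CPM in WD in muscle (-0.71 ± 0.09, adjusted p = 0.000123) and rose in kidney by 0.67 ± 0.08 (adjusted p = 0.000102). *Fads3* had -0.14 ± 0.04 in kidney (adjusted p = 0.0458) and *Npr3* had -0.13 ± 0.08 (adjusted p = 0.307). *Txnip* and *Abcg1* were called in the same direction in both tissues, with -0.92 ± 0.10 and 0.79 ± 0.13 in kidney.

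**Figure D5:**
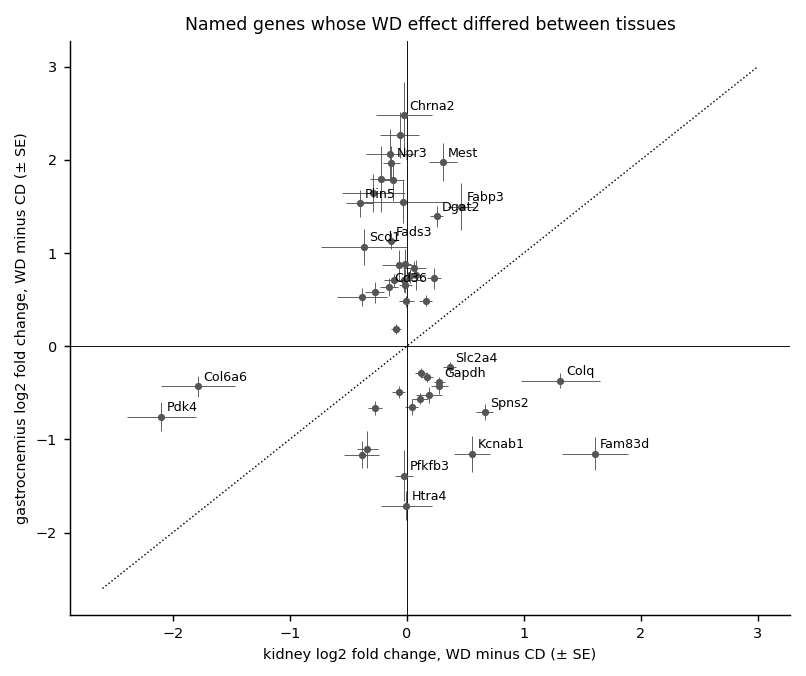
Log2 fold change of WD vs. CD in gastrocnemius against that in kidney, with SE bars, for the genes of the naming rule whose diet effect differed between the tissues at an adjusted p under 0.05, which is how they were chosen. The dotted line marks equal effects, and *Plin5*, *Dgat2* and *Npr3* lie above it while *Gapdh*, *Spns2* and *Fam83d* lie below.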

How the data were processed

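Gastrocnemius RNA was sequenced from 5 CD and 5 WD mice, 1 library each. The deposited values are whole-number gene counts, which the authors made by trimming reads with SOAPnuke and aligning them with STAR 2.7.3a (per the submitters' processing notes) to GRCm38 (mm10). The counting tool and its use of strand are not given in the sources used here. Genes were kept with edgeR 4.0.16 filterByExpr at a minimum count of 10, which left 15419 of 55487 genes and 99.95% of counts.

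Counts were scaled by TMM and tested with edgeR's robust quasi-likelihood F test, two-sided, in 1 model of all 15 gastrocnemius libraries (CD, WD and the WD mice given CHP, which shared the estimate of the spread), with Benjamini-Hochberg adjustment over all genes and a threshold of 0.05. The SE is the log2 fold change divided by the square root of F. Kidney was fitted likewise, and the difference between tissues in 1 model of 30 libraries. Library composition was compared with two-sided exact permutation tests. The procedure was tested on simulated data (15419 genes, WD vs. CD), where 50% of genes changed by 0.5 and 82% of those changed by 1 on the log2 scale were recovered, with 6 false calls. The biological coefficient of variation was 11.6%.

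Named genes were the 10 largest rises and 10 largest falls (adjusted p under 0.05, mean log2 CPM of at least 1, no overlap), the 5 smallest p-values each way, up to 4 called genes per list, fixed anchor genes (3 of which did not pass the filter) and the 5 genes with the smallest p of the tissue difference. Other genes are named as examples of a list, chosen after their values were seen. Some genes of the rule are not reported here. The members, lists and tests were chosen with earlier results of these data known. Scores are means of centred log2 CPM with a prior count of 2. Alternatives were DESeq2 1.42.0, limma-voom 3.58.1, other scalings and filters, a replicate block, a length and GC correction, marker scores as covariates and leaving out each library. Leaving out CD libraries 1 and 2, the slow fibre score and the letters GAANNTTC and AGGTCA were added after seeing the data. Promoter windows were RefSeq's for GRCm38.p6.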

Additional observations from a re-analysis of the deposited data

Results flagged for a closer look

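Among 308 groups of 5 libraries, over the named genes and 3 measures of library composition, 19 held a library far from the other 4 of its group, and chance gives about 1 in 20 such groups. The second CD library held *Ankrd2* at 105 CPM (others 52.7 to 64.2), *Cpt2* at 60.8 CPM (others 52.4 to 54.4), *Csrp3* at 56.2 CPM (others 18.9 to 25.6), *Hadhb* at 379 CPM (others 286 to 309) and *Mvd* at 7.51 CPM (others 4.78 to 5.27). The third CD library held *Abra* at 150.3 CPM (others 113 to 121), *Acta2* at 38.2 CPM (others 48.9 to 50.7) and *Lep* at 3.84 CPM (others 0.561 to 1.25). The first WD library held *Insr* at 101 CPM (others 77.5 to 82.5). The second WD library held *Agpat2* at 6.498 CPM (others 7.97 to 8.41) and *Myh7* at 1280.3 CPM (others 257 to 472). WD library 4 held *Cd68* at 2.38 CPM (others 3.15 to 3.29), *Dbp* at 97.1 CPM (others 46.5 to 59.4), *Dnajb4* at 60.8 CPM (others 79.3 to 83.3), *Hibch* at 30.4 CPM (others 35.1 to 36.6) and *Kcnab1* at 6.00 CPM (others 3.76 to 3.87). The fifth WD library held *Cpt1b* at 4.56 CPM (others 1.31 to 2.14), *Mt1* at 10.2 CPM (others 3.45 to 3.91) and *Mt2* at 5.70 CPM (others 1.39 to 2.43).

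For 57 of 130 named genes tested in both tissues the diet effect differed between gastrocnemius and kidney in the joint edgeR model at an adjusted p under 0.05. The named genes were chosen in part by their muscle effect and by this difference, so the count is not set against all genes. The values are log2 differences, gastrocnemius minus kidney. Differences of at least 1 upward were those of *Chrna2* (2.51), *Rab15* (2.32), *Nnat* (2.20), *Npr3* (2.10), *Otud1* (2.02), *Plin5* (1.93), *Hspa1a* (1.93), *Tmem45b* (1.89), *Mest* (1.67), *Hspa1b* (1.58), *Scd1* (1.43), *Col6a6* (1.35), *Pdk4* (1.34), *Fads3* (1.27), *Dgat2* (1.14) and *Fabp3* (1.03). Smaller upward differences were those of *Psat1* (0.94), *Dok7* (0.91), *Agpat2* (0.90), *Fgf1* (0.85), *Slc25a20* (0.82), *Cd36* (0.79), *Dnajb4* (0.77), *Enah* (0.77), *Phgdh* (0.74), *Decr1* (0.73), *Hsdl2* (0.71), *Mvd* (0.68), *Cat* (0.67), *Ephx2* (0.65), *Hadhb* (0.65), *Hadha* (0.60), *Tbc1d1* (0.50), *Cpt2* (0.48), *Hsd17b4* (0.41), *Srxn1* (0.33) and *Hibch* (0.28). Downward differences of at least 1 were those of *Fam83d* (-2.76), *Kcnab1* (-1.71), *Htra4* (-1.71), *Colq* (-1.69), *Spns2* (-1.38), *Pfkfb3* (-1.37) and *Smox* (-1.04). Smaller downward differences were those of *Slc43a1* (-0.78), *Pim1* (-0.77), *Lpin1* (-0.71), *Igfbp5* (-0.71), *Pdp2* (-0.69), *Pcx* (-0.68), *Gapdh* (-0.66), *Slc2a4* (-0.60), *Amd1* (-0.57), *Pgk1* (-0.50), *Npc1* (-0.42), *Pfkm* (-0.41) and *Zfp949* (-0.39). *Pdk4* and *Col6a6* stand among the upward differences although both fell in gastrocnemius, as both fell further in kidney.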

How the results depend on the processing

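Of 108 named genes called, 108 remained called with DESeq2, with limma-voom and with DESeq2 size factors in edgeR, and none of the 108 turned direction in any fit other than that with the adipocyte score, where 4 did. Of the 108, calls lost numbered 108 with the adipocyte score, 50 with the slow fibre score, 10 without a filter, 9 each with the replicate block, with the CD and WD libraries alone and without CD libraries 1 and 2, and 7 with total-count scaling. Calls numbered 1751 with DESeq2, 1334 with limma-voom, 915 without a filter, 1018 with the CD and WD libraries alone, 1619 with the length and GC correction, and 940 to 1406 when 1 library was left out (522 to 821 upward, 411 to 585 downward). They numbered 2138 (1136 up, 1002 down) at an adjusted p under 0.1 and 155 (110 up, 45 down) at a log2 fold change of at least 1. Total-count scaling gave 1830 calls, 1495 up and 335 down, and 1500 genes differing from kidney, and shifted the median of all genes to 0.07. The adipocyte score gave 0 calls (0 up, 0 down) and the slow fibre score 276 (170 up, 106 down). The replicate block gave 1132 calls, and 1447 with the length and GC correction. Same-numbered libraries did not deviate together (correlations -0.18 to 0.09), which cannot show whether mice of the same number were matched.

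Differences in composition, leaving out each library, were 0.842 to 1.47 percentage points for the mitochondrial share, -3.76 to -2.90 for the leading nuclear genes and 0.0362 to 0.0559 for the TMM factor, the last missing the threshold without WD library 3 and the first passing without CD library 1 or WD library 4.

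Log2 fold changes that turned direction were, under total-count scaling, *Gys1* 0.052, *Mstn* 0.0078 and *Pecam1* 0.033, and under the length and GC correction *Dbp* -0.017. With the adipocyte score they were *Adgre1* -0.64, *Adipoq* -0.095, *Cd68* -0.46, *Col18a1* -0.045, *Cpt1b* -0.21, *Dbp* -0.66, *Gys1* 0.059, *Irf7* -0.041, *Irs2* 0.28, *Mb* -0.078, *Mstn* 0.15, *Myh4* 0.18, *Oaz1* -0.086, *Ppargc1a* 0.14, *Sat1* -0.11, *Srm* -0.11, *Ulk1* 0.13 and *mt-Nd1* -0.036. With the slow fibre score they were *Cpt1b* -0.011, *Irf7* -0.057, *Mstn* 0.054 and *Myh7* -0.55, and without CD libraries 1 and 2 *Angptl4* 0.17, *Col3a1* 0.029, *Dbp* -0.24, *Hk2* -0.071 and *Insr* -0.042. When 1 library was left out, the range crossed 0 for *Cpt1b* (-0.15 to 0.38), *Dbp* (-0.16 to 0.23), *Gys1* (-0.048 to 0.0088), *Hk2* (-0.035 to 0.063), *Insr* (-0.062 to 0.063), *Irs1* (-0.010 to 0.21), *Mstn* (-0.15 to 0.012), *Myh7* (-0.0098 to 0.82) and *Oaz1* (-0.013 to 0.12). The cause was not tested. Genes as scarce as *Gdf5* (0.0195 to 0.116 CPM in CD) rest on few counts per library.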

Other observations

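Polyamine genes were chosen after their values were seen. Polyamines are made from ornithine and spread through growth and stress responses, and of 10 genes tested 0 rose and 3 fell, where 3.88% of all genes fell and the choice of the group allows no comparison with that share. The 0 depended on the scaling, as *Oaz2* was called upward by edgeR with total-count scaling (0.26, adjusted p = 0.0385). *Odc1*, the first enzyme of the path, was at 259.8, 249.9, 232, 251.7 and 327 CPM in CD and 169, 135, 147, 167 and 141 CPM in WD (-0.80 ± 0.15, adjusted p = 0.00383). *Amd1*, which supplies the aminopropyl groups, was at 1684, 1512, 1485, 2155 and 1767 CPM in CD and 1225, 1057, 1287, 1389 and 1052 CPM in WD (-0.52 ± 0.11, adjusted p = 0.0055), and *Smox*, spermine oxidase, was at 920.3, 746, 662, 820.2 and 675 CPM in CD and 342, 299, 521, 459.7 and 323 CPM in WD (-0.97 ± 0.18, adjusted p = 0.00466). *Srm* (0.08 ± 0.07, adjusted p = 0.53), *Sms* (0.21 ± 0.07, adjusted p = 0.059), *Sat1* (0.13 ± 0.08, adjusted p = 0.341), *Paox* (-0.21 ± 0.08, adjusted p = 0.137), *Oaz1* (0.08 ± 0.09, adjusted p = 0.636), *Oaz2* (0.19 ± 0.07, adjusted p = 0.113) and *Azin1* (0.12 ± 0.10, adjusted p = 0.506) did not pass.

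Another 5 genes around actin were picked because they rose, so their direction is no result. Actin genes also fell, namely *Actc1* (-1.36 ± 0.32, adjusted p = 0.0203) and *Acta1* (-0.22 ± 0.06, adjusted p = 0.0196). *Abra*, an activator of serum response factor signalling in striated muscle, was at 116, 113, 150.3, 121 and 117 CPM in CD and 246, 229, 256, 209.9 and 259 CPM in WD (0.96 ± 0.10, adjusted p = 3.18e-05). *Lmod2*, which lengthens thin filaments, was at 90.2, 108, 92.8, 93.3 and 109 CPM in CD and 218, 236, 220.0, 164 and 188 CPM in WD (1.06 ± 0.15, adjusted p = 0.000602). *Enah* rose by 0.71 ± 0.10, adjusted p = 0.000344, and *Acta2* (0.59 ± 0.11, adjusted p = 0.00402) and *Tagln* (0.53 ± 0.12, adjusted p = 0.0126), which are also markers of smooth muscle, rose less. In the CD group the third library was the highest in *Abra* and the lowest in *Acta2*.

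Peroxisomal enzymes outside the list, picked in the same way because they rose, were *Ephx2* (0.81 ± 0.11, adjusted p = 0.000388), *Hsdl2* (0.58 ± 0.08, adjusted p = 0.000312) and *Hsd17b4* (0.46 ± 0.05, adjusted p = 5.98e-05). Of the 8 peroxisomal genes in the fatty acid list 3 rose, with a median of 0.15. *Ephx2* was at 21.9, 28.7, 20.5, 18.5 and 19.9 CPM in CD and 39.6, 36.0, 43.6, 30.1 and 43.3 CPM in WD.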
